A study of Homo sapiens with 8 samples.

Results

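Vesicle traffic genes were taken as the genes named in the promoter, exon, intron or UTR columns of 2 deposited tables of differential H3K79me2 and H3K79me3 regions, where the symbol begins with RAB and a digit, VPS, SNX, SEC and a digit, VAMP, STX, COP and A, B, E, G or Z, ARFGEF, ARFGAP, TBC1D, TRAPPC, EXOC or is VAPA or VAPB. The rule found 115 of the 5630 genes named in those columns, 88 of 3665 in the H3K79me2 table and 73 of 4045 in the H3K79me3 table. Of the 115, 111 are protein-coding in RefSeq, 3 are antisense RNAs (EXOC3-AS1, STX18-AS1 and STXBP5-AS1) and SEC1P is a pseudogene. The cells were MOLM-13, a human acute myeloid leukemia line with an MLL fusion gene, carrying either shLAMP5-AS1, whose name points to the lncRNA LAMP5-AS1 as its target, or shNC, the control hairpin. ChIP-seq gave 1 ChIP library per mark and condition and 1 input library for each, so 4 ChIP and 4 input libraries in all. The labels disagree in part: control libraries are tagged control siRNA, the treatment text is about siRNAs to other genes, and the growth text is about cells grown out of a xenograft. The files hold no RNA levels, so neither the cell type nor the knockdown could be checked here.

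H3K79 methylation is written by DOT1L and lies over the bodies of transcribed genes, mostly in their upstream part. Vesicle traffic moves proteins and membrane between the endoplasmic reticulum (ER), the Golgi, endosomes, lysosomes and the cell surface. Coats and sorting nexins shape and load carriers, Rab GTPases mark membranes, tethers such as the exocyst, TRAPP and HOPS capture carriers, and SNARE proteins fuse them with their target. Many of these genes are active in nearly all cells, and white blood cells use some of them further for granule release and phagocytosis.

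Each deposited region has a signed score without a stated unit. The sign and the region's name (positive or negative) had 0 mismatches in either table. Neither the files nor the labels say which condition a negative score stands for, so signs are printed unchanged and are not read as gain or loss in shLAMP5-AS1 cells. With 1 ChIP library per condition there is no replicate check and no test; the number of regions or genes cannot replace replicates. The depth of the libraries is unknown, since the tables give no read totals. Scores took few values (73 distinct sizes over the 187 H3K79me2 regions of these genes and 66 over the 244 H3K79me3 regions), so that many regions share one score. Positions are those of the tables. Of 20 pairs of a gene and a region annotated to its promoter, only 2 had the region within 5 kb of that gene's GRCh38 start. Positions were therefore not treated as GRCh38. The submitters' processing notes name hg19 beside it, without saying which the tables use.

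Upstream sequence was read for the 96 of 115 genes that RefSeq's promoter table lists (GRCh38.p14). The 250 bases before the start were searched on both strands for 6 short motifs. TGACGTG, the core of the element through which ATF6 and XBP1 act when the ER is under load, was present in 5 genes (5.21%, against 1.71% of all 27305 promoters and 1.79% of 15843 coding ones). All 5 encode parts of the route out of or into the ER. The naming rule itself takes in genes of that route, such as those with SEC, COP and TRAPPC symbols. Their share among the 96 was not counted, so nothing is read from this. SEC62 also had an H3K79me2 region annotated to its promoter, shared with LOC100128164. Windows of 30 bases on the gene's strand are shown with the motif, or its reverse complement CACGTCA, in capitals:
SEC62 (chr3:169966777-169966806, plus strand): ccccctcctcgctcCACGTCAgagggaacc
SEC24A (chr5:134648594-134648623, plus strand): cgtgagagtcggTGACGTGgcggcgaggcc
COPB1 (chr11:14499841-14499870, minus strand): cccacccccttcCACGTCAgccaaggactc
COPB2 (chr3:139389825-139389854, minus strand): gctcagcggcacCACGTCAcggcccttagt
STX5 (chr11:62832052-62832081, minus strand): gggttacgtgtaggTGACGTGgccgcttcc

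CACGTG, the core of the element bound by TFEB in genes of lysosomes and endosomes and also by other basic helix-loop-helix factors, was present in 12 genes (12.5%, against 6.49% of all promoters and 7.84% of coding ones). The genes below are only a part of the 12. The others are RAB21, RAB4A, SEC16A, SEC23IP, SEC24A, STX6, TBC1D15 and TBC1D20. SEC16A, SEC23IP and SEC24A among them belong to the route out of the ER, so the matches are not confined to endosome genes. Of the genes below, VAPA had the largest H3K79me3 score of the set, and RAB5A and VPS37B belong to the endosome. The motif is in capitals:
VAPA (chr18:9913986-9914015, plus strand): aggcacgcagaggccgtCACGTGggtcgcc
RAB5A (chr3:19946964-19946993, plus strand): cactcgcagggtCACGTGacatcctgcctc
VPS37B (chr12:122896146-122896175, minus strand): cagggctggcgtCACGTGtcccccccgcgg
TBC1D8 (chr2:101151426-101151455, minus strand): gcggggcggggcCACGTGagggccgcgctg

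CCGGAAG, bound by ETS factors, was present in 17 of the 96 genes (17.7%, against 8.82% of all promoters and 11.8% of coding ones). Among the 17 listed genes with a promoter-annotated region it was present in 6 (35.3%), TGACGTG in 1 (5.88%) and CACGTG in 0. In capitals is the motif or its reverse complement CTTCCGG, in 4 of those 6 genes:
COPA (chr1:160343278-160343307, minus strand): gagcctaagagaCCGGAAGttcgtgtttcc
EXOC3 (chr5:443135-443164, plus strand): ccggcgccgttgCCGGAAGcggaagtgccc
TRAPPC2 (chrX:13734648-13734677, minus strand): gcccagcaccggCCGGAAGctccgcctacg
VPS52 (chr6:33271990-33272019, minus strand): ctaggagaagtgCTTCCGGaaactgtttca

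The other motifs were GGGCGG, the GC box (68.8% of these genes, against 42.3% of all and 56.0% of coding promoters), CCAAT (29.2%, against 33.0% and 34.5%) and TATAAA (1.04%, against 11.1% and 9.23%). Of the 17 genes with a promoter-annotated region, 12 held GGGCGG (70.6%), 5 CCAAT (29.4%) and 0 TATAAA. No searched motif contains another. These matches describe letters in a window, not binding. The vesicle traffic genes were picked by having a region, while the comparison promoters include those of genes without one. Whether any motif share is a trait of vesicle traffic genes was not tested.

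The comparison of shLAMP5-AS1 with shNC cells asks where H3K79 methylation differs when LAMP5-AS1 is targeted. For H3K79me3, 241 of the 244 regions of vesicle traffic genes had a negative score (98.8%, 95% Wilson interval 96.4 to 99.6, counting error only), against 98.1% of all regions that name a gene. Of the 73 genes, 70 had negative regions only (95.9%, against 94.3% of all genes with a region). TBC1D9B was the 1 gene with positive regions only (1.37%, against 2.18%), and RAB7A and RAB10 had both signs. The share of negative regions was thus near the background of the table.

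For H3K79me2 the signs were mixed. Of 187 regions, 108 were negative and 79 positive (57.8% negative, 95% Wilson interval 50.6 to 64.6, against 55.4% of all regions that name a gene). Negative regions only were found in 43 of 88 genes (48.9%, against 41.5% of all genes with a region), positive regions only in 26 (29.5%, against 32.3%) and both in 19 (21.6%, against 26.2%). The background share lay inside the interval for regions, which covers counting error only and treats regions of the same gene as independent. Typical score sizes were also those of the table, with a median size in the authors' deposited tables of 10.2 for these genes and 10.2 for all genes in both marks.

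In RefSeq, 288 protein-coding symbols fit the naming rule, and 177 of them had no region of either mark under that symbol. An H3K79me2 region was found for 86 of the 288 (29.9%, against 16.8% of all RefSeq protein-coding genes), and an H3K79me3 region for 70 (24.3%, against 17.7%). Silent genes are in the denominator, and having a region is what made a gene a member, so nothing is read from these shares. The same limit holds for the counts of RefSeq genes per family given below. RAB5IF and VPS26C were listed in the tables under older names (C20orf24 and DSCR3) and are not counted.

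**Figure D1:**
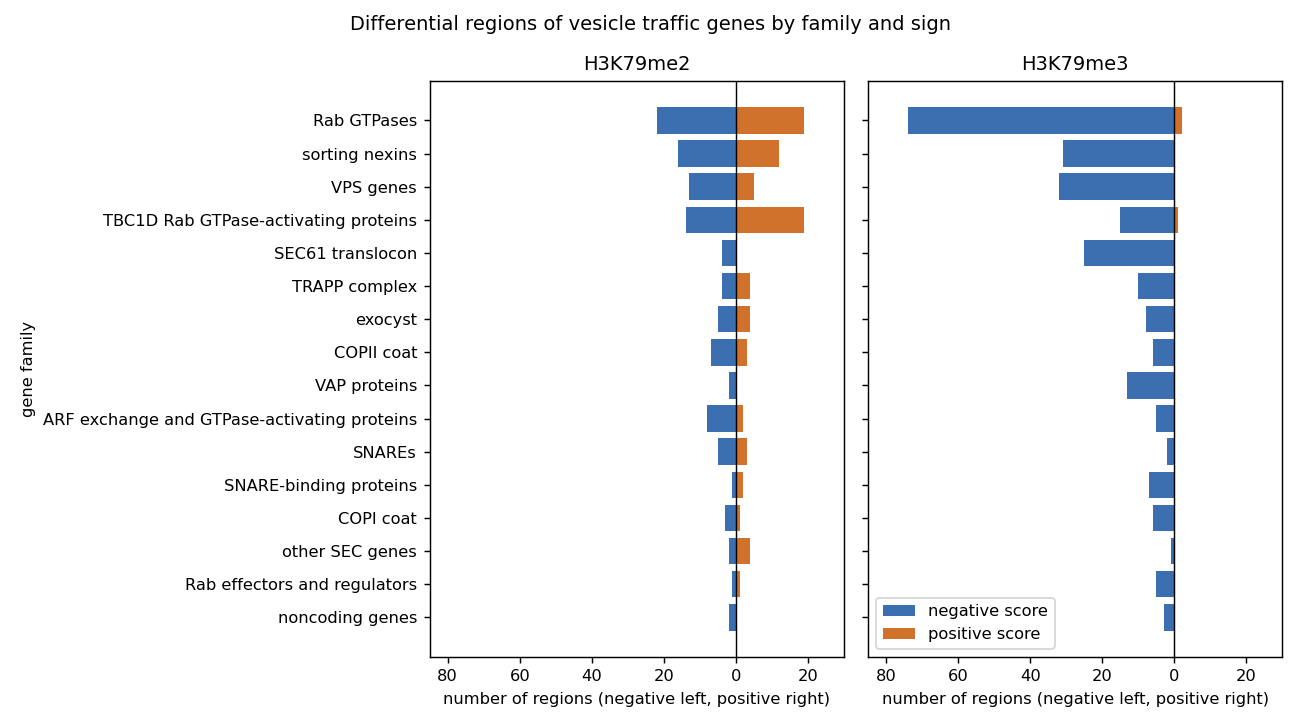
Number of differential regions per gene family for H3K79me2 (left panel) and H3K79me3 (right panel), with negative scores drawn to the left of 0 and positive scores to the right. The H3K79me3 bars lie almost wholly on the negative side (241 of 244 regions), whereas H3K79me2 bars extend to both sides (108 negative and 79 positive).

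Rab GTPases, the switches that give each membrane its identity, formed the largest family, with 22 members of 64 RefSeq genes, 12 of them with both marks. An H3K79me2 region was found in 18 of the 64 (28.1%, against 16.8% of all coding genes). For H3K79me3 it was 16 (25.0%, against 17.7%). Rab GTPases held 76 H3K79me3 regions, 74 of them negative, and 41 H3K79me2 regions, 22 negative and 19 positive. RAB1A, which acts between the ER and the Golgi, had 15 H3K79me3 regions, all negative. Their scores ran from -20.2 through a median size of 12.2 to -8.0 in the authors' deposited table, and the leading region was intronic, on chromosome 2 at 65340609 to 65340707. Both H3K79me2 regions of RAB1A were negative too, with -11.3 and -10.9 in the authors' deposited table, so this gene had a single sign in both marks.

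RAB2A, a Golgi and late endosome GTPase, also had 15 H3K79me3 regions, all negative, with the largest score, -16.9 in the authors' deposited table, at chromosome 8, 61436196. It had 8 H3K79me2 regions, more than any other vesicle traffic gene, and these were split. In order along the chromosome, their scores in the authors' deposited table were 13.8, 10.9, 8.41, -8.41, 8.41, -10.2, -14.2 and 6.17. The first 3 were positive, and both signs followed. All but the last 3 of these regions lay within the stretch spanned by the H3K79me3 regions.

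RAB7A, the late endosome GTPase, had 9 H3K79me3 regions, 8 negative and 1 positive. Its largest negative score in the authors' deposited table was -20.2, for an intronic region on chromosome 3 at 128450555 to 128450743. The positive region, 13.5 in the authors' deposited table, lay at 128469963 to 128470038, between negative ones. RAB7A's 5 H3K79me2 regions had, in order, 11.2, 12.5, -11.2, 12.5 and -11.3 in the authors' deposited table. RAB10, which serves recycling and exocytosis, had 10 negative H3K79me3 regions and 1 positive, the positive one (6.17 in the authors' deposited table) standing last, 38.8 kb beyond its neighbour. Its 4 H3K79me2 regions had -9.88, -9.32, 9.44 and -12.9 in the authors' deposited table.

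RAB44, a large Rab known from mouse as a factor of lysosome-related organelles, had 7 H3K79me3 regions within 11.5 kb, all negative, the largest with -21.6 in the authors' deposited table. Its 2 H3K79me2 regions had -11.6 and -6.95 in the authors' deposited table. RAB26 had 1 region, at -25.6 in the authors' deposited table the third largest H3K79me3 score of the set, but this region (chromosome 16, 2203957 to 2204069) is also annotated to TRAF7 and cannot be assigned to either gene alone. RAB18, a lipid droplet and ER GTPase, and RAB6A, a Golgi GTPase, each reached -18.8 for H3K79me3 in the authors' deposited table.

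Of the early endosome paralogs, RAB5A and RAB5C had positive H3K79me2 regions only, and RAB5B a single negative one. RAB5C had 4 regions, all positive, with 8.41, 10.2, 9.32 and 11.8 in the authors' deposited table. RAB5A had 1 region at 8.26, and RAB5B 1 promoter region in a CpG island at -10.9, in the authors' deposited table. For H3K79me3, RAB5C had 1 region at -6.06 in the authors' deposited table, and RAB5A and RAB5B had none. RAB27A, which docks secretory granules in myeloid and other blood cells, had -15.5, -11.6, 10.2 and -6.98 for H3K79me2 and 4 negative H3K79me3 regions from -12.0 to -8.32 in the authors' deposited table.

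The remaining Rab GTPases had few regions. RAB14 and RAB4A were negative in both marks, while RAB35 had 9.08 for H3K79me2 and -10.2 for H3K79me3 in the authors' deposited tables. RAB18, RAB20, RAB23 and RAB33B had 1 H3K79me2 region each, of which only that of RAB33B was positive. RAB9A had 1 of each sign. RAB8A and RAB8B, GTPases of exocytosis, had 1 negative H3K79me3 region each, with -14.96 and -7.17 in the authors' deposited table, and RAB21 had 1 with -10.2. RAB11FIP1, an effector that links recycling endosomes to motors, had 5 H3K79me3 regions within 9.01 kb, all negative, the largest with -17.5 in the authors' deposited table, and 1 positive H3K79me2 region. RAB11FIP3 had 1 H3K79me2 region, at -6.9 in the authors' deposited table.

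TBC1D proteins switch Rab GTPases off. Their 11 members, of 44 RefSeq genes, had 33 H3K79me2 regions, 14 negative and 19 positive. For H3K79me3 they had 16, of which 15 were negative. Over all genes, 8252 H3K79me2 regions (55.4% negative) and 12427 H3K79me3 regions (98.1% negative) named a gene. TBC1D2B had 6 of the 33, and TBC1D5, TBC1D8 and TBC1D12 had 5 each. An H3K79me2 region was found in 10 of the 44 genes (22.7%, against 16.8% of all coding genes). For H3K79me3 it was 4 (9.09%, against 17.7%). The genes are few, nothing is read from these counts, and a difference between marks was not tested. TBC1D1, a regulator of glucose transporter traffic, had the largest negative H3K79me2 score of all vesicle traffic genes, -22.8 in the authors' deposited table. The region was intronic, on chromosome 4 at 38012710 to 38012794. That score ranked 24th in size among the table's negative regions. Its other regions had -11.6 and -14.96 in the authors' deposited table, so all 3 were negative.

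A pair of further TBC1D genes had runs of the other sign. TBC1D8 had 5 H3K79me2 regions over 68.1 kb, with 5.95, 11.3, 9.08, 12.2 and 13.5 in the authors' deposited table. TBC1D12, a regulator of recycling endosomes, had 5 over 22.2 kb, with 10.2, 8.26, 6.17, 10.3 and 10.2 in the authors' deposited table. All regions of both genes were positive, and neither gene had an H3K79me3 region. Positive regions only were found in 32.3% of all genes with an H3K79me2 region. The share among genes with 5 or more regions was not counted. TBC1D14, which acts in recycling and autophagy, had 13.7 and 12.5, again both positive, in the authors' deposited table.

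TBC1D15, a RAB7A regulator, had 3 negative H3K79me2 regions, the largest with -16.8 in the authors' deposited table, and 1 negative H3K79me3 region shared with MRS2P2. TBC1D20, a RAB1 and RAB18 regulator, had -15.3 and -9.09 for H3K79me2 in the authors' deposited table. TBC1D5, which releases RAB7A from endosomes next to the retromer, had 4 positive H3K79me2 regions and 1 negative, but 6 negative H3K79me3 regions. TBC1D2B had 4 negative and 2 positive H3K79me2 regions and 8 negative H3K79me3 regions. TBC1D22A (8.41), TBC1D22B (-12.9) and TBC1D9B, whose single H3K79me3 region had 8.44, complete the family in the authors' deposited tables.

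Genes of the ER come next. VAPA, an ER membrane protein that tethers other membranes to the ER, had the largest H3K79me3 score of the set. Its 13 regions lay within 19.6 kb and were all negative. Their largest score was -33.9, followed by -20.2 and -17.5, and the smallest was -8.0, in the authors' deposited table. The leading region, in an intron at chromosome 18, 9918355 to 9918465, ranked 6th in size among the negative regions of the table. Both H3K79me2 regions of VAPA were negative as well (-7.53 and -12.8 in the authors' deposited table). VAPB had no region.

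Translocon genes fit the symbol rule although they bring new proteins into the ER and are not vesicle proteins. Of 6 RefSeq genes, 5 had an H3K79me3 region (83.3%, against 17.7% of all coding genes). Having a region is what made a gene a member, and the family is small, so nothing is read from this share. SEC63, which works with the translocon, had 17 H3K79me3 regions, the most of any vesicle traffic gene. They covered 6.56% of a span of 28.5 kb, were all negative and had a median score size of 12.5, with -17.5 as their extreme, in the authors' deposited table. One of the 2 regions with that score lay at the promoter, in a CpG island (chromosome 6, 108279034 to 108279100). In the whole table, 87 genes (2.15%) had at least 17 regions. SEC62 had 4 negative H3K79me3 regions, and SEC61A1, SEC61B and SEC61G had 2, 1 and 1. That of SEC61B is shared with ALG2 and that of SEC61G with LOC100996654. The 4 H3K79me2 regions of SEC62, SEC63 and SEC61G were negative, from -9.17 to -6.97 in the authors' deposited table. All 25 H3K79me3 regions of the translocon genes were negative too, as were 98.1% in the table, and 4 H3K79me2 regions are few beside a background of 55.4% negative.

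SEC11A, a signal peptidase subunit, had 4 positive H3K79me2 regions (9.08, 11.3, 13.7 and 10.2) and 1 negative (-16.2) in the authors' deposited table, the negative one standing first along the chromosome. SEC14L2 had 1 H3K79me3 region and SEC1P 1 H3K79me2 region, both negative. SEC23IP, an ER exit site protein counted here with the other SEC genes outside the coat, had 1 negative H3K79me2 region at -8.02 in the authors' deposited table.

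The COPII coat carries cargo out of the ER. Its 7 members had 7 negative and 3 positive H3K79me2 regions and 6 H3K79me3 regions, all negative. The cargo-binding subunit genes differed: SEC24D had 3 negative H3K79me2 regions (-6.9, -14.96 and -10.9), whereas SEC24A had 13.2, -10.4 and 8.0 in the authors' deposited table. SEC24B had -6.9 for H3K79me2, and SEC24C had -8.32 for H3K79me3, in the authors' deposited tables. SEC16A, the ER exit site scaffold, had 2 adjacent H3K79me3 regions, the larger with -16.2 in the authors' deposited table. The outer coat gene SEC31A had 8.1 for H3K79me2 and -6.95 for H3K79me3, and SEC23B had -8.0 and -9.08 for H3K79me2, in the authors' deposited tables.

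COPI returns carriers from the Golgi to the ER. COPB2 was negative in both marks (-11.8 for H3K79me2 and -6.95 for H3K79me3 in the authors' deposited tables), and COPB1 had 1 negative H3K79me2 region. The H3K79me3 region of COPB2 is shared with LOC100507291. COPA had an intronic region at -11.6 and a promoter region at 8.44 for H3K79me2 in the authors' deposited table, and the promoter region is shared with its neighbour NCSTN. COPE had 4 negative H3K79me3 regions, of which both promoter regions are shared with DDX49, and COPG2 had 1.

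ARF regulators load and unload the ARF GTPases that recruit COPI and other coats. The paralogs ARFGEF1 and ARFGEF2 had opposite H3K79me2 signs. ARFGEF1 had 7 regions over 99.1 kb, all negative, from -12.7 to -8.72 in the authors' deposited table, and 3 negative H3K79me3 regions down to -18.8. ARFGEF2 had a single H3K79me2 region, with 26.0 in the authors' deposited table. It was intronic, on chromosome 20 at 47547190 to 47547276. This was the largest positive score of the set and ranked 10th among the positive regions of the table. ARFGAP2 had 1 H3K79me2 region of each sign and 2 negative H3K79me3 regions.

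Tethers showed short lists of regions. TRAPP genes, which activate RAB1, had 10 H3K79me3 regions, all negative, and 4 negative and 4 positive H3K79me2 regions. TRAPPC8 led with -18.8 for H3K79me3 and had -13.7 and 10.2 for H3K79me2 in the authors' deposited tables. TRAPPC10 and TRAPPC11 had 3 H3K79me3 regions each and were negative in both marks. TRAPPC4 had 2 positive H3K79me2 regions, the larger (11.3 in the authors' deposited table) shared with RPS25. TRAPPC3 had 1 positive region and TRAPPC6B 1 negative region of H3K79me2, and TRAPPC2 had 2 negative H3K79me3 regions.

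The exocyst tethers secretory carriers at the plasma membrane. Its 6 members had 8 H3K79me3 regions, all negative, and 5 negative and 4 positive H3K79me2 regions. EXOC6 was negative in both marks, with -14.96 and -7.29 for H3K79me2 in the authors' deposited table. EXOC5 had -9.08, 11.3, 11.3 and -11.2 for H3K79me2 in the authors' deposited table, the positive pair lying between the negative ones. EXOC3 had -7.99 and 11.3 for H3K79me2 in the authors' deposited table and 2 negative H3K79me3 regions. EXOC4 had 1 positive H3K79me2 region, and EXOC1 and EXOC8 had H3K79me3 regions only, both of EXOC1 inside a CpG island at its promoter. That of EXOC8 is shared with SPRTN.

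SNARE genes, whose products fuse membranes, had an H3K79me2 region in 7 of 26 RefSeq genes (26.9%, against 16.8% of all coding genes) and an H3K79me3 region in 1 (3.85%, against 17.7%). The counts are small, nothing is read from these shares, and a difference between marks was not tested. VAMP8, a SNARE of granule release and endosome fusion, had 1 region in an exon or UTR (chromosome 2, 85808956 to 85809107). At -18.8 in the authors' deposited table, its score was the second largest negative one of the set. STX11, which is needed for cytotoxic granule release, had 13.7 and STX5, the ER and Golgi SNARE, 14.2, in the authors' deposited table. STX6 had -10.2, SEC22C -6.02, VAMP7 6.95 and STX18 -6.68 and -10.4 in the authors' deposited table, the last of these shared with STX18-AS1. The VAMP7 region is listed on chromosome Y, whereas the RefSeq start of VAMP7 used here is on chromosome X. Only 6.65% of the positive H3K79me2 regions had a smaller score than that region. STX8 alone had H3K79me3 regions, with -7.17 and -9.51 in the authors' deposited table. STXBP5, which binds SNAREs and holds back fusion, had 6 negative H3K79me3 regions and H3K79me2 scores of 7.99, -10.4 and 8.0 in the authors' deposited tables. STXBP6 had 1 H3K79me3 region, at -10.7 in the authors' deposited table.

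VPS genes, first known from yeast vacuole sorting, had 18 H3K79me2 regions, 13 of them negative, and 32 H3K79me3 regions, all negative. All 4 retromer core genes of the list used here (VPS26A, VPS26B, VPS29 and VPS35) had H3K79me3 regions, 9 in all, where 17.7% of all coding genes had one. The complex was chosen after values were seen, and nothing is read from this count. Retromer returns receptors from endosomes to the Golgi and the surface. VPS26A had 5 regions within 2.87 kb, with -16.0, -18.8, -13.3, -8.0 and -8.32 in the authors' deposited table. VPS29 had -17.4, VPS26B -14.6 and VPS35 -14.6 and -9.32 for H3K79me3 in the authors' deposited table. For H3K79me2 only VPS29 had regions, with 14.5, -8.44 and -8.0 in the authors' deposited table, the last of these shared with RAD9B.

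ESCRT genes, whose products sort receptors into multivesicular bodies, were led by VPS37A. It had 13 H3K79me3 regions over 22.2 kb, all negative, the largest with -15.2 in the authors' deposited table, and 2 negative H3K79me2 regions. The first 4 of the 13 are shared with CNOT7. VPS36 had 1 H3K79me3 region, at -23.1 in the authors' deposited table (chromosome 13, 53021014 to 53021194). VPS37B and the ESCRT ATPase gene VPS4B had 1 positive H3K79me2 region and 2 negative H3K79me3 regions each. Of the 7 HOPS and CORVET genes, VPS18 had 2 negative H3K79me2 regions and VPS41 1 H3K79me3 region, and of the 5 GARP and EARP genes VPS54 and VPS52 had regions, in 1 mark each. Lipid transfer genes were VPS13A (-17.5 for H3K79me2), VPS13C (-16.0 for H3K79me3) and VPS13B, which had 4 negative and 2 positive H3K79me2 regions in the authors' deposited tables. VPS33B, an endosome gene, had -16.2 for H3K79me2 in the authors' deposited table, in a region shared with LOC101926911.

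Sorting nexins bind endosome membranes. They had 13 members of 30 RefSeq genes, 9 of them with both marks, with 31 H3K79me3 regions, all negative, and 16 negative and 12 positive H3K79me2 regions. SNX5, a retromer partner, had 11 H3K79me3 regions within 19.1 kb, from -31.6 to -5.86 in the authors' deposited table. The largest, at chromosome 20, 17945143 to 17945426, ranked 10th among the table's negative regions and is annotated to the intronic small nucleolar RNA gene SNORD17 as well, as are the 2 regions before it. The next largest scores of SNX5 were -13.7 and -13.6 in the authors' deposited table, outside SNORD17. Its H3K79me2 region was positive (12.1 in the authors' deposited table) and is shared with MGME1.

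SNX1 and SNX2, partners of SNX5 at the retromer, were likewise positive for H3K79me2 (SNX1 7.74 and SNX2 13.2, 11.3 and 7.53) and negative for H3K79me3 (SNX1 -11.3 and -12.5 and SNX2 -7.17 and -8.41) in the authors' deposited tables. SNX20, a leukocyte nexin that binds the adhesion ligand PSGL-1, had 17.5 for H3K79me2, and 2 H3K79me3 regions less than 1 kb away had -14.96 and -14.6, in the authors' deposited tables. SNX10, an endosome nexin of osteoclasts, went the other way for H3K79me2, with 5 negative regions from -13.8 to -6.95 in the authors' deposited table. SNX27, a recycling adaptor, had 3 negative H3K79me2 regions and SNX18 3, while SNX13 had 2 positive ones and SNX4 1. SNX3 had 3 negative and 2 positive H3K79me2 regions and 5 negative H3K79me3 regions. SNX14 had 1 H3K79me2 region of each sign, SNX16 was negative in both marks, and SNX11 had 2 H3K79me3 regions at -10.2 each in the authors' deposited table.

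**Figure D2:**
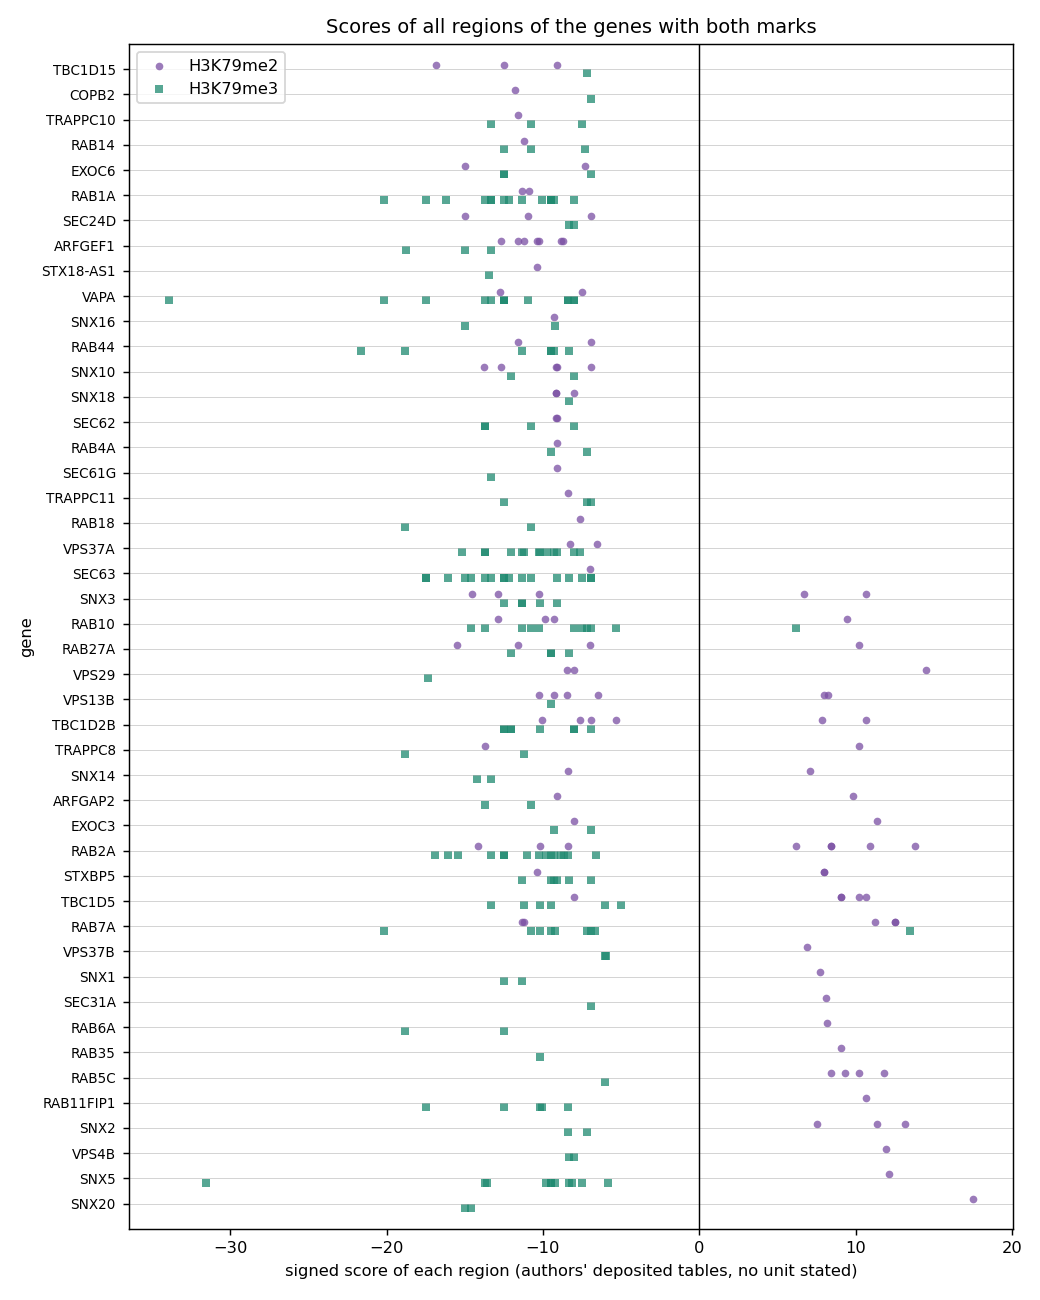
Signed score of every region (horizontal axis, the authors' deposited tables, no unit stated) for each of the 46 genes with regions of both marks, with H3K79me2 as circles and H3K79me3 as squares. All squares lie left of 0 except 1 of RAB10 and 1 of RAB7A, whereas the circles of 11 genes at the bottom lie only to the right.

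Both marks had regions in 46 vesicle traffic genes, which is 52.3% of the 88 H3K79me2 genes and 63% of the 73 H3K79me3 genes (56.8% and 51.4% for all genes). A further 42 genes had H3K79me2 regions only and 27 H3K79me3 regions only. Of the 46, 21 had negative regions only in both marks (45.7%, against 36.9% of all genes with both marks), and 12 had both signs for H3K79me2 and negative H3K79me3 regions only (26.1%, against 33.1%). Positive H3K79me2 with negative H3K79me3 regions were found in 11 (23.9%, against 23.4%). These 11 were SNX20, SNX5, RAB11FIP1, RAB35, SNX2, VPS4B, RAB6A, SNX1, SEC31A, RAB5C and VPS37B. The other two were RAB7A and RAB10, with both signs in both marks. The share of opposite genes was near that of all genes, and the marks come from separate libraries, so a difference between marks was not tested.

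Of 116 H3K79me2 regions in the 46 genes, counted once per gene, 3 shared at least 1 bp with an H3K79me3 region of the gene (2.59%, against 2.5% in all 2080 genes with both marks). The median gap to the nearest one was 4.33 kb, against 4.57 kb in all such genes. Within 1 kb lay 20 of the 116 (17.2%, 95% Wilson interval 11.4 to 25.1, against 20.5%). The spacing of the marks was thus near that of the table. In ARFGEF1 both overlapping regions were negative (-11.6 for H3K79me2 and -13.3 for H3K79me3 in the authors' deposited tables), with 37 bp shared at chromosome 8, 68254020. In STXBP5 the same 64 bp (chromosome 6, 147538039 to 147538103) had 7.99 for H3K79me2 and -8.32 for H3K79me3 in the authors' deposited tables. TBC1D2B had 7.86 for H3K79me2 and -6.95 for H3K79me3 in the authors' deposited tables, with 9 bp shared.

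**Figure D3:**
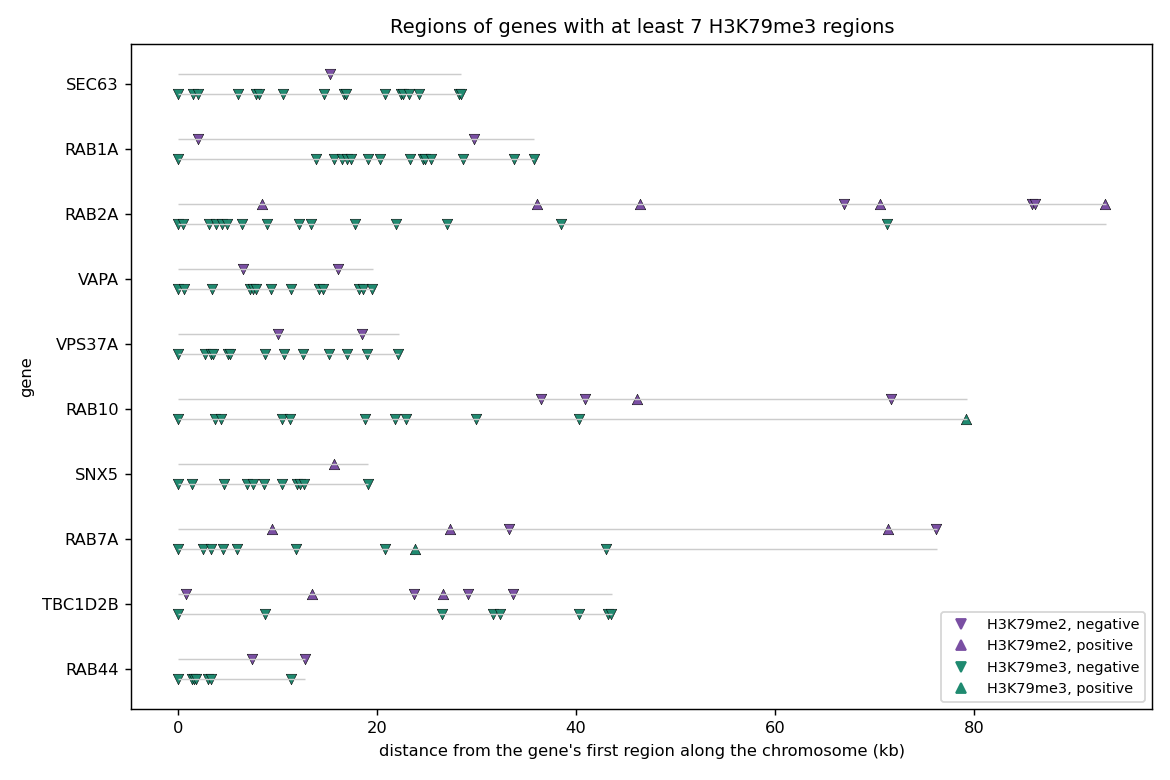
Position of each region, as distance in kb from the gene's first region along the chromosome, for the 10 genes with at least 7 H3K79me3 regions, with H3K79me2 on the upper and H3K79me3 on the lower line of each gene. Down-pointing triangles are negative and up-pointing ones positive scores. No gap between H3K79me3 regions exceeds 4.04 kb in SEC63 or 3.73 kb in VAPA, while the widest is 38.8 kb in RAB10 and 32.6 kb in RAB2A.

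Runs of H3K79me3 regions, taken as at least 5 regions in one gene, were found in 15 of 73 genes (20.5%, against 17.7% of all genes). Median gaps within these runs were 1.44 kb in SEC63, 1.37 kb in RAB1A, 1.12 kb in VAPA, 1.84 kb in VPS37A, 1.36 kb in SNX5 and 2.48 kb in RAB2A, and 0.652 kb in RAB44. The longest run was that of TBC1D5, with 6 regions over 147.0 kb. For H3K79me2, 11 of 88 genes had 5 or more regions (12.5%, against 11.2%). Of these, 4 had a single sign, ARFGEF1 and SNX10 negative and TBC1D8 and TBC1D12 positive. How many of the 410 genes with such runs in the whole table have a single sign was not counted. Nothing is therefore read from the 4. Median gaps in H3K79me2 runs were 8.02 kb in ARFGEF1, 10.2 kb in RAB2A and 16.6 kb in TBC1D8, and 4.13 kb in TBC1D12. A single region was all that 45 H3K79me2 genes (51.1%, against 52.7%) and 27 H3K79me3 genes (37.0%, against 46.6%) had.

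**Figure D4:**
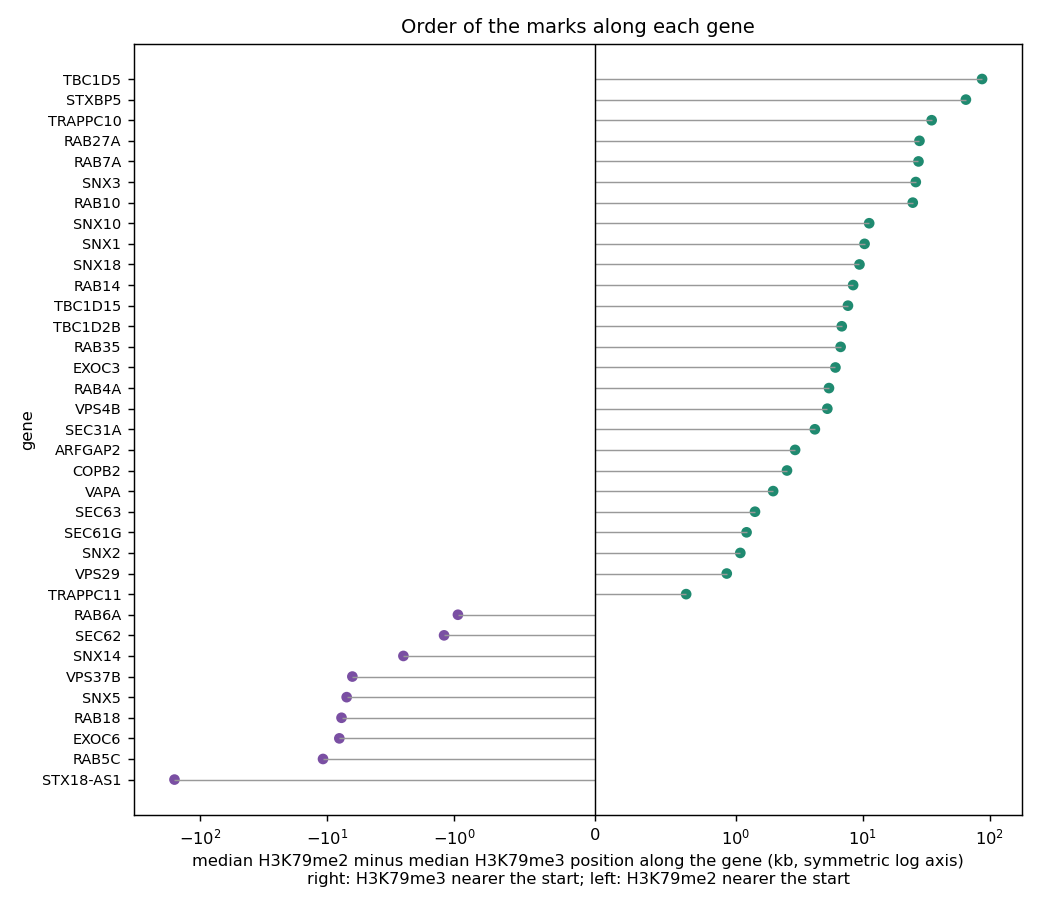
For each of 35 genes with both marks and a strand listed by RefSeq, the median position of its H3K79me2 regions minus that of its H3K79me3 regions along the direction of transcription, in kb on a symmetric log axis. Points to the right of 0 (26 genes) have H3K79me3 nearer the start of the gene, and points to the left (9 genes) have H3K79me2 nearer.

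Along the direction of transcription, H3K79me3 regions lay upstream of H3K79me2 regions in most genes. The strand could be read for 35 of the 46 genes with both marks. In 26 of them (74.3%, 95% Wilson interval 57.9 to 85.8) the median H3K79me3 position was nearer the gene's start, with a median offset of 4.18 kb over the 35. The same held for 1120 of 1598 genes of the whole series (70.1%, median offset 3.83 kb), so the order was not particular to vesicle traffic genes. Among genes with at least 2 regions of each mark it was 12 of 15 (80%, against 77.4%). The offset was 86.9 kb in TBC1D5, 64.8 kb in STXBP5, 34.8 kb in TRAPPC10, 27.9 kb in RAB27A, 27.4 kb in RAB7A, 26.1 kb in SNX3 and 24.7 kb in RAB10. In STX18-AS1 (-160.0 kb), RAB5C (-10.8 kb), EXOC6 (-8.03 kb), RAB18 (-7.72 kb) and SNX5 (-7.03 kb) H3K79me2 was nearer the start.

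Promoter-annotated regions were few. They were 7 of the 187 H3K79me2 regions (3.74%, 95% Wilson interval 1.82 to 7.52, against 5.88% of all regions that name a gene) and 15 of the 244 H3K79me3 regions (6.15%, 3.76 to 9.89, against 9.03%). The H3K79me2 ones were at RAB6A (8.14) and COPA, which were positive, and at RAB5B, SEC62, SEC22C, SEC1P and STX18-AS1, which were negative, in the authors' deposited table. All 15 H3K79me3 ones were negative, led by SEC63 (-17.5) and by SNX20, TRAPPC2 and VPS26B (-14.6 each) in the authors' deposited table. Most of these promoter regions are shared with another gene and cannot be assigned to 1 gene. For H3K79me2, only those of RAB5B and RAB6A named no other gene. For H3K79me3, only those of EXOC1, SEC63 and SNX20 named no other gene. Shared ones include those of SEC62 with LOC100128164, SEC22C with NKTR and SEC1P with DBP for H3K79me2. For H3K79me3 they include those of VPS52 with RPS18, TRAPPC2 with OFD1, VPS26B with NCAPD3 and SEC61B with ALG2. CpG shores held 31 H3K79me2 regions (16.6%, against 12.2%) and 50 H3K79me3 regions (20.5%, against 19.9%). CpG islands held 1 H3K79me2 region (0.535%, against 1.71%) and 6 H3K79me3 regions (2.46%, against 3.48%).

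The symbol rule leaves out many genes of vesicle transport. A list of 138 such genes covered adaptors, clathrin, dynamins, ARF GTPases, SNARE cofactors, tethers, cargo receptors, ESCRT and Rab regulators. An H3K79me3 region was found in 48 of the 138 (34.8%, against 17.7% of all RefSeq protein-coding genes). Their 152 H3K79me3 regions were all negative (against 98.1% of all regions that name a gene). For H3K79me2, 57 of the 138 had a region (41.3%, against 16.8%). Of those regions, 68 were negative and 55 positive (55.3% negative, against 55.4%). The list was chosen with earlier results of these data known, so nothing is read from its shares of genes with a region. Both shares of negative regions were near the background of the tables. AP5M1, an adaptor subunit, had the largest H3K79me2 score of the list (-23.1), and PICALM, a clathrin assembly gene, the next (21.5), in the authors' deposited table. STAM, of the ESCRT pathway, and DNM2, the dynamin that cuts carriers free, each reached -17.5 for H3K79me2 in the authors' deposited table, with 7 negative regions in STAM. For H3K79me3, DNM2 (-21.6) led AP3S1 and CLINT1 (-20.2 each) and ARF1 (-18.8) in the authors' deposited table.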

How the data were processed

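ChIP-seq libraries of H3K79me2 and H3K79me3 from MOLM-13 cells were analysed from the 2 deposited tables of differential regions, one for each mark. The signed score per region is the authors' deposited value. Per the submitters' processing notes, Bowtie2, MACS2 2.1.1, bedtools and DESeq2 were among the tools, and GRCh38, hg38 and hg19 among the builds; the step that made the score is not given in the sources used here.

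Symbols were matched to the naming rule in the promoter, exon, intron and UTR columns. A region counts once in totals and once for each gene it names. Counting used pandas 2.3.3 in Python 3.11.15 and was tested on simulated data. Intervals used scipy 1.17.1 and numpy 2.4.6, and figures matplotlib 3.10.9. The strand and the upstream sequence came from RefSeq (GRCh38.p14), with the first listed start per gene. No test was possible with 1 ChIP library per condition. Wilson intervals (95%) cover counting error only. The members and lists were chosen with earlier results of these data known. For each mark and sign, the 10 members with the largest score, members with 5 or more regions, members with opposite signs or overlapping regions and 4 genes per mark of the second list were named first; the rest are given for completeness. The grouping of VPS genes and nexins into complexes and the 6 motifs were chosen after values were seen. Starts are printed as deposited, and their counting base is not given in the sources used here.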

Additional observations from a re-analysis of the deposited data

How the results depend on the processing

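The share of negative regions of vesicle traffic genes kept its majority sign under every alternative run. It ranged from 56.2% to 59.1% for H3K79me2 (57.8% as reported) and from 97.3% to 99.3% for H3K79me3 (98.8% as reported). The alternatives were a score size of at least 10, a single value per gene, autosomes only, regions that name members alone, joining same-sign regions up to 5 kb apart, omitting RAB2A (H3K79me2) or SEC63 (H3K79me3), which have the most regions, omitting translocon, SEC11, SEC14, SEC1P and noncoding genes, and, chosen after seeing the data, leaving out chromosome 8. With regions that name members alone, 42 of the 46 genes with both marks remained. A reciprocal overlap of 50% left 1 gene, STXBP5, with overlapping regions of both marks in place of 3, since it asks for more shared bases. Counting the 2 kb upstream as promoter left the promoter shares at 3.74% and 6.15%. This is no check of those shares, because regions annotated only to the 2 kb upstream are not among the counted regions. No paired analysis was possible because each group holds 1 library and no test was made. Scores of single regions have no replicate error, and the depth behind them is unknown.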

Other observations

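A few regions lay beside vesicle traffic genes without touching them. In the H3K79me3 table, 4 regions were annotated only to the 2 kb downstream of such a gene, 3 of them negative. The one behind RAB8A lies inside HSH2D and had -20.1, larger in size than the -14.96 within RAB8A, in the authors' deposited table. The one behind RAB8B had 8.44, opposite in sign to the -7.17 within RAB8B, and the one behind RAB5C had -6.06, in the authors' deposited table. TRAPPC5, with -13.3 in the authors' deposited table, had no region of its own. These genes were picked by annotation, after values were seen.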
